A study of Mus musculus with 2 samples.

Results

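A set of 9 genes of the endocrine progenitor programme was followed in pancreatic islet cells of young mice, mainly outside the insulin-producing β cells. The genes were *Neurog3*, *Sox4*, *Hes6*, *Runx1t1*, *Gadd45a*, *Tox3*, *Aldh1a3*, *Vwa5b2* and *Mdk*, a fixed list of symbols looked up among the 31053 genes counted, and all 9 were found. Of the 8897 cells that passed the filters, 5238 were not led by insulin. The study compared WT mice with *Npc1*KO littermates lacking the lysosomal cholesterol transporter NPC1 in all tissues, both on the C57BL/6J background, bred from heterozygous parents and aged 2 weeks. Dispersed islets of 3 female mice were pooled for each genotype, according to the labels, and each pool became 1 droplet-based (10x Genomics) library. The labels name version 3 of the reagents and the study's methods version 2. The counts are unique molecular identifiers (UMIs), that is, captured RNA molecules.

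Each genotype was sequenced once, so its differences are given without p-values and could not be checked against a spread between replicates. The ranges in parentheses are exact 95% intervals for counting error alone, from the Poisson distribution for levels, by Clopper-Pearson for shares of cells and from the conditional binomial for genotype ratios. The WT library held 8569 barcodes with 114324626 UMIs and the *Npc1*KO library 7646 barcodes with 127122035 UMIs. Kept cells numbered 4628 and 4269, with medians of 18905 and 21381 UMIs, and 3 kept barcodes occurred in both libraries. *Npc1* itself had 790 UMIs in the WT cells, a level of 8.40 per 1000000 UMIs (CPM), and 391 UMIs, or 4.14 CPM, in the *Npc1*KO cells. Reads of the targeted transcript were therefore still counted in the knockout, and these 3′ tags do not show whether the transcript was intact.

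Cells were classed by the hormone that took the largest share of their UMIs, which had to reach 10%. Insulin led in 1833 WT and 1826 *Npc1*KO cells, glucagon in 1048 and 857, somatostatin in 189 and 141, and the pancreatic polypeptide family (*Ppy* and *Pyy*, here PP) in 411 and 442. No hormone led in 1147 and 1003 cells. Cycling cells, those with at least 3 UMIs of *Mki67* and *Top2a*, numbered 298 and 238 and were drawn from all of these classes.

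Endocrine cells of the pancreas arise from duct-like progenitors that switch on *Neurog3*, which encodes the basic helix-loop-helix protein neurogenin 3. NEUROG3 drives cells out of the cycle and turns on *Neurod1*, *Insm1*, *Nkx2-2*, *Fev* and other factors, while Notch signalling through *Hes1* holds it down. Its expression is known mainly from the embryonic pancreas, where it is brief, and endocrine identity is then held by later factors.

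The proteins of this family bind the E-box CANNTG, and the proximal promoters of *Neurog3* and of *Hes6*, another basic helix-loop-helix gene among the 9, are shown with each E-box in capitals. Both are RefSeq sequences on GRCm38.p6, from 250 bases before to 50 bases after the gene start, read 5′ to 3′ on the gene's strand.

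Neurog3, chr10:62132840-62133139, plus strand: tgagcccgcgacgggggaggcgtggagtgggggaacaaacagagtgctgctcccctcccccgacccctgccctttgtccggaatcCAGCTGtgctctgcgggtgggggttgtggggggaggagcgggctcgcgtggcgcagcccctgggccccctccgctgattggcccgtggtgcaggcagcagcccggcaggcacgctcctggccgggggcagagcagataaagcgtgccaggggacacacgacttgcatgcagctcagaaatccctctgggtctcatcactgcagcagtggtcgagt
Hes6, chr1:91413989-91414288, minus strand: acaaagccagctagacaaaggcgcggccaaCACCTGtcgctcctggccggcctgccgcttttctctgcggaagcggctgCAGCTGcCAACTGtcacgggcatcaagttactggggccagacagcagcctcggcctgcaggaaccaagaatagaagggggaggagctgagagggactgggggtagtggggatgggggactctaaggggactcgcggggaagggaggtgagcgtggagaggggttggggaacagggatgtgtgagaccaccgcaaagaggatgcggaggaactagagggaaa

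The *Neurog3* window held 1 E-box and the *Hes6* window shown held 3. A second *Hes6* start site, whose window is chr1:91413173-91413472, had 1. RefSeq entries were matched for 6 of the 9 genes, with 8 start sites in all, and 7 of these 8 windows held at least 1 CANNTG, against 72.3% of 32851 mouse promoters of the same length. CAGATG, a single spelling of the E-box searched on both strands, was in 0 of the 8 windows and in 17.2% of all promoters. These are matches of letters and not sites of binding. *Runx1t1*, *Aldh1a3* and *Mdk* had no entry.

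*Neurog3* (GRCm38 chr10:62133090-62134763, plus strand, overlapped on the other strand by *Fam241b*) was concentrated in somatostatin-led cells of both libraries. The WT library held 638 *Neurog3* UMIs in its kept cells and the *Npc1*KO library 943. Somatostatin-led cells, 4.08% and 3.30% of the kept cells, held 34.3% and 22.6% of them. The level there was 80.7 CPM (70.3 to 92.1) in WT and 87.6 CPM (76.2 to 100) in *Npc1*KO.

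PP-led cells came next, at 19.8 and 25.7 CPM. Cells with no leading hormone held 5.03 CPM in WT and 13.6 CPM in *Npc1*KO, glucagon-led cells 3.57 and 6.12 CPM, and insulin-led cells 2.59 and 4.27 CPM. The order of the classes was the same in both libraries. In WT the intervals of the 3 lowest classes overlapped each with its neighbour, and in *Npc1*KO all 5 stood apart.

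**Figure D1:**
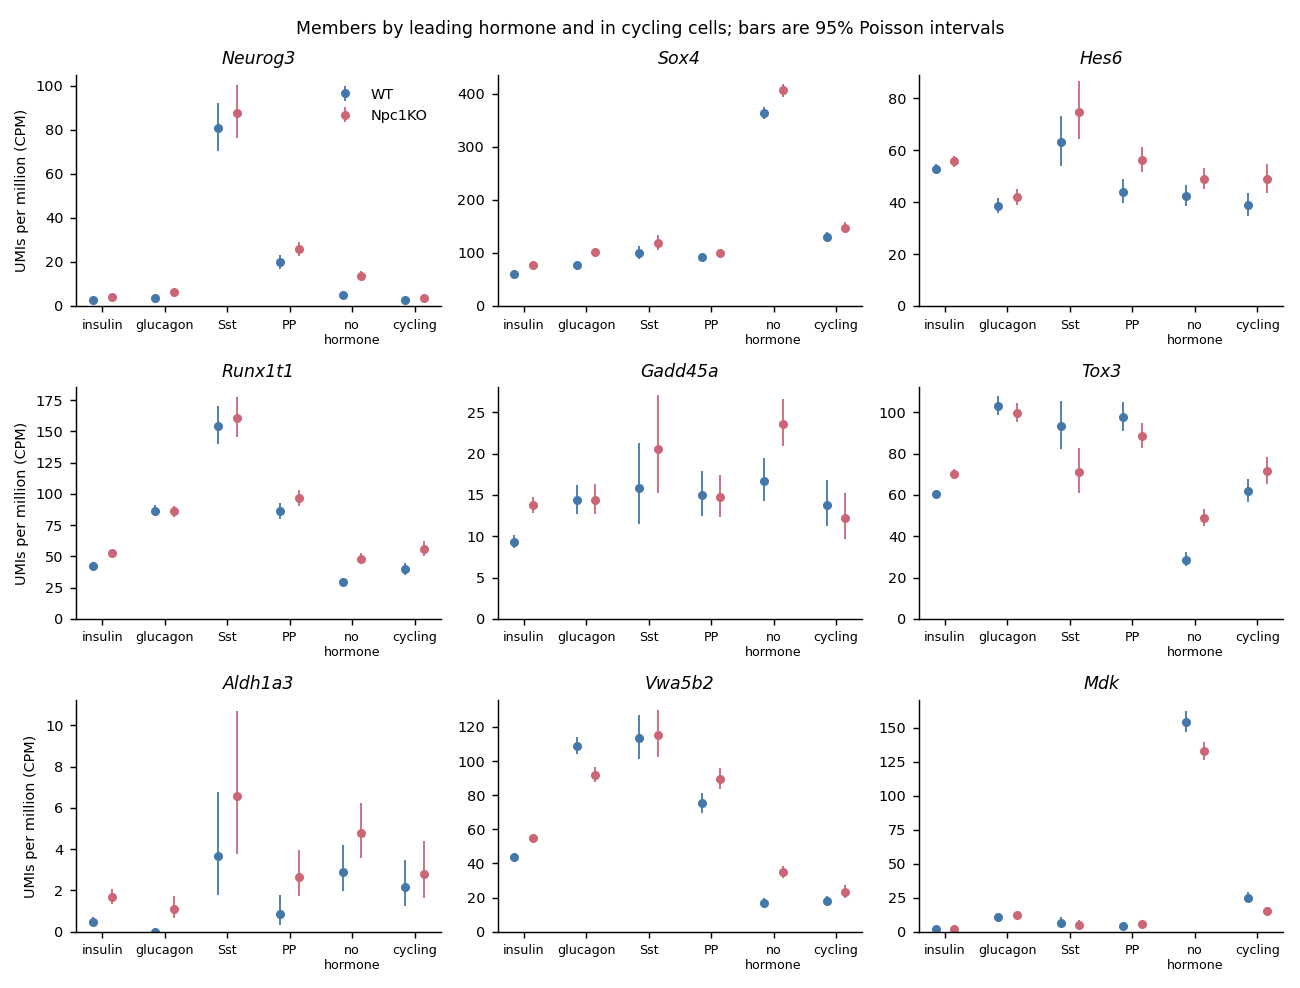
Level of each of the 9 genes (CPM, linear axis from 0, a scale of its own in each panel) in cells led by insulin, glucagon, somatostatin (Sst) or PP, in cells with no leading hormone and in cycling cells, for WT (blue) and *Npc1*KO (red); bars are 95% Poisson intervals, for counting error only. *Neurog3* stands highest in somatostatin-led cells, *Sox4* and *Mdk* in cells with no leading hormone, and *Hes6* lies between 38.6 and 74.8 CPM in the hormone classes.

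A *Neurog3* UMI was seen in 61.9% of WT and 58.9% of *Npc1*KO somatostatin-led cells. After each cell was thinned to 5000 UMIs, the shares were 31.5% (24.8 to 38.8) and 28.1% (20.8 to 36.3). The same thinning gave 1.11% and 1.88% of insulin-led cells, and 9.65% and 13.3% of PP-led cells. In endothelial, stromal, glial and immune cells, which should lack the gene, it gave 0.621% of 805 WT cells and 0.139% of 719 *Npc1*KO cells. These cells had median depths of 6725 and 7967 UMIs, against 14444 and 15814 in somatostatin-led cells. Their *Neurog3* level was 1.39 CPM (12 UMIs) in WT and 0.590 CPM (5 UMIs) in *Npc1*KO, given as a reference beside the low classes. The highest count in a cell was 10 UMIs in WT and 11 in *Npc1*KO.

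Differences between classes were tested with edgeR's quasi-likelihood test on UMIs summed by library and class (16 sums, with cycling cells kept apart and library as a term), adjusted over 14249 genes. The 2 libraries are the only replicates behind these tests, and library is also genotype. The standard errors (SE) given after ± were worked back from the test, as the absolute log2 difference divided by the square root of its F statistic. Hormone transcripts took 55.8% to 57.8% of the UMIs of insulin-led cells, 32.4% to 42.2% in the other hormone classes and 2.79% to 3.29% where no hormone led, so the fitted log2 differences, which are TMM-scaled, differ from ratios of CPM.

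*Neurog3* was higher in somatostatin-led than in insulin-led cells by 3.91 ± 0.27 on the log2 scale (SE; adjusted p = 7.05e-08 by edgeR), and in PP-led cells by 2.32 ± 0.26 (adjusted p = 1.03e-05). The glucagon-led difference was 0.05 ± 0.29 (adjusted p = 0.912) and was not called. Cells with no leading hormone were lower than the mean of the 4 hormone classes by 1.11 on the log2 scale (coefficient -1.11 ± 0.24, adjusted p = 0.000647), a sign that turned when the leading hormone had to reach 20% of UMIs, as given under the processing.

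*Neurog3* was also found in cells that held *Sst* but were led by another hormone. In a split chosen after the values were seen, 434 WT and 416 *Npc1*KO cells had at least 1% of their UMIs from *Sst*. They held 81.2% and 61.8% of all *Neurog3* UMIs, at 63.5 and 65.5 CPM. The other 4194 and 3853 cells stood at 1.40 and 4.21 CPM. The level did not rise steadily with *Sst*, since cells of 10% to 20% had 78.3 and 86.8 CPM and those above 20% had 57.6 and 46.6 CPM. Nor was it low in all cells below 1%, as the granin-rich cells described later show.

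The same split divided the PP-led cells. Those with at least 1% *Sst*, 144 in WT and 162 in *Npc1*KO, had 64.8 and 65.4 CPM of *Neurog3* and held 95.7% and 82.5% of the class's *Neurog3* UMIs. They also had 333 and 297 CPM of *Hhex*, a transcription factor of δ cells. The 267 and 280 PP-led cells below 1% had 1.21 and 6.64 CPM of *Neurog3*, and 5.02 and 9.64 CPM of *Hhex*. With all cells of at least 1% *Sst* counted as somatostatin-led, the PP difference of *Neurog3* from insulin-led cells fell to 0.68 and was not called.

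Among insulin-led cells, 52 WT and 58 *Npc1*KO cells passed 1% *Sst*, and they held 56.3% and 35.9% of the *Neurog3* UMIs of that class. Their median Scrublet doublet scores were 0.237 and 0.195, against 0.062 and 0.060 in the rest of the class, and 48 of the 52 and 41 of the 58 were among the cells that a doublet rate of 0.8% per 1000 barcodes would remove. In the *Sst*-rich PP-led cells the scores were 0.018 and 0.019. The glucagon-led cells past 1% *Sst*, 25 and 27, had scores of 0.257 and 0.181.

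*Runx1t1* and *Vwa5b2* followed the same split within PP-led cells. From 1% *Sst* upwards *Runx1t1* had 139 CPM (WT) and 153 CPM (*Npc1*KO), and at 64.4 and 69.3 CPM below. *Vwa5b2* stood at 114 and 112 CPM, and at 59.2 and 78.6 CPM. *Tox3* was the other way round, with 82.9 and 81.5 CPM against 104 and 91.7 CPM below 1%. *Hes6* had 51.4 and 71.3 CPM from 1% upwards against 41.0 and 49.2 CPM below, and *Sox4* 98.1 and 113 CPM against 89.2 and 92.7 CPM.

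Within the somatostatin-led cells, those with and without a *Neurog3* UMI were set side by side. Seeing a UMI of a scarce transcript depends on the depth of the cell, which was not matched, and the differences were not tested. In WT, 117 cells with a UMI had 174 CPM of *Runx1t1*, 124 CPM of *Vwa5b2* and 109.9 CPM of *Sox4*, and the 72 cells without had 119.6, 96.3 and 81.1 CPM. In *Npc1*KO the 83 cells with a UMI had 168, 126 and 120.1 CPM of these genes, and the 58 without had 149.5, 100.7 and 116 CPM. *Hhex* was higher with a *Neurog3* UMI in WT (437 against 324 CPM) and not in *Npc1*KO (331 against 361 CPM). *Sst* itself was lower in the cells with a *Neurog3* UMI in both libraries, at 169310 against 188213 CPM and at 166972 against 180628 CPM.

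**Figure D2:**
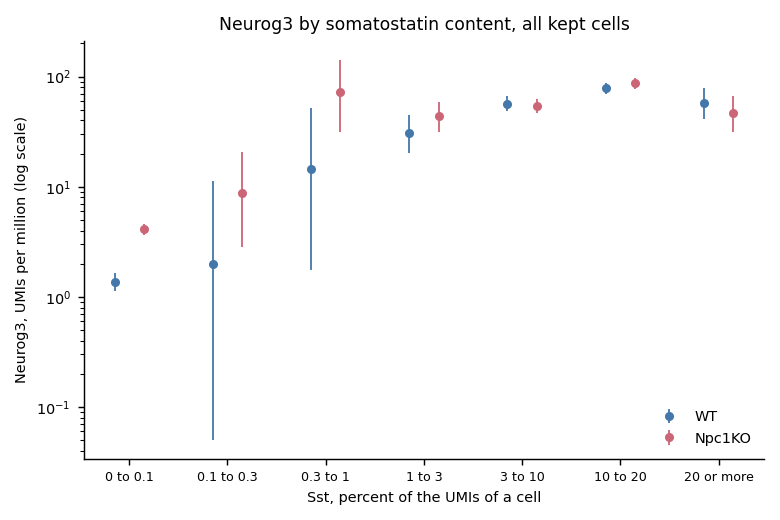
*Neurog3* level (CPM, log axis) in all kept cells binned by the percent of their UMIs from *Sst*, for WT (blue) and *Npc1*KO (red), with 95% Poisson intervals. From 1% *Sst* upwards both libraries lie between 31.0 and 86.8 CPM, and in the lowest bin at 1.37 and 4.09 CPM; the bins between 0.1% and 1% hold only 6 to 33 cells each.

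The genotype comparison uses the ratio of *Npc1*KO to WT within a class, on the log2 scale and relative to the median gene of that class. A ratio was called past the fold when it reached 1.5-fold in either direction and its interval excluded equality. Only genes that reached 5 CPM in 1 of the libraries could be called, and ratios of lower genes are given without a call. Of the 9 genes, 6 could be called in insulin-led, 8 in glucagon-led, 9 in somatostatin-led and 8 in PP-led cells. The number was 8 where no hormone led and 7 in cycling cells. The shares of all genes set beside them count only genes that could be called.

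In somatostatin-led cells the relative ratio of *Neurog3* was 0.11 (-0.17 to 0.39). None of the 9 genes passed the fold there, where 2.94% of 10388 genes passed it upwards and 2.46% downwards. *Aldh1a3* reached 0.80 on 10 and 16 UMIs with an interval that included 0 (-0.40 to 2.13), and *Tox3* gave -0.40 (-0.69 to -0.12), under 1.5-fold. The same was true of PP-led cells, where *Neurog3* gave 0.31 (0.02 to 0.61) and where 1.88% and 2.26% of 9971 genes passed.

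In glucagon-led cells *Neurog3* rose from 66 UMIs in WT to 105 in *Npc1*KO, a relative ratio of 0.74 (0.29 to 1.21). It was the only 1 of the 9 past the fold, against 0.707% of 9897 genes upwards and 1.07% downwards. The call was lost when ranked doublets were removed. Insulin-led cells had 142 and 231 *Neurog3* UMIs, a relative ratio of 0.60 (0.29 to 0.91), but lay under 5 CPM in both libraries, and 0 of the 9 genes passed there, beside 1.3% and 1.35% of 8858 genes.

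The genotype ratio of *Neurog3* was also read on each side of 1% *Sst*. Below 1%, the insulin-led cells had 62 UMIs in WT and 148 in *Npc1*KO (relative ratio 1.15, 0.72 to 1.61), the glucagon-led cells 31 and 64 (1.13, 0.50 to 1.81), the PP-led cells 7 and 42 (2.28, 1.19 to 3.76), and the cells with no leading hormone 20 and 106 (2.13, 1.46 to 2.93). *Npc1*KO was higher in each of these 4 groups, but the last included granin-rich cells, described later. Without those cells, the class with no leading hormone, at any *Sst* share, had 36 *Neurog3* UMIs in WT and 32 in *Npc1*KO. The rise was not seen in this set, which is not limited to cells below 1% *Sst* and so does not match the group above. The insulin-led and glucagon-led cells lay under 5 CPM in both libraries, at 2.84 and 3.93 CPM in *Npc1*KO, so their ratios could not be called. The PP-led cells and those with no leading hormone had 6.64 and 9.86 CPM in *Npc1*KO. From 1% upwards, the ratios in the 5 classes ran from -0.09 to 0.24 and every interval included 0. The difference between the sides was not tested, and doublets and free RNA were not separated from it. Over all cells not led by insulin and below 1% *Sst*, *Neurog3* stood at 1.75 CPM (58 UMIs) in WT and 6.36 CPM (212 UMIs) in *Npc1*KO, a relative ratio of 1.77 (1.36 to 2.23). The WT levels below 1% *Sst* were 1.17 to 2.10 CPM in the 4 groups. The endothelial, stromal, glial and immune cells had 1.39 CPM in WT, from 12 UMIs in 5 of 1039 cells, and 0.590 CPM in *Npc1*KO. That reference was not limited to cells below 1% *Sst*: in WT 4 endothelial cells, 1 Schwann cell and 3 macrophages reached it. Its cells are also part of the class with no leading hormone, though not of the hormone-led groups. It was not taken as a background for these levels.

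Cells with no leading hormone were a mixture, which was split by marker genes. Endothelial cells (424 WT and 431 *Npc1*KO), stellate cells or pericytes (237 and 256), mesenchymal cells (59 and 59), Schwann cells (30 and 39) and macrophages (59 and 36) were present in both libraries. B cells numbered 145 in WT and 1 in *Npc1*KO, and T cells 83 and 0. A granin-rich subset, defined by at least 2% of UMIs from the granule proteins *Chga* and *Chgb*, numbered 18 cells in WT and 107 in *Npc1*KO, or 0.389% (0.231 to 0.614) and 2.51% (2.06 to 3.02) of kept cells. Its median doublet scores were 0.145 in WT and 0.042 in *Npc1*KO, 6 of the 18 and 7 of the 107 cells were among the ranked doublets, and 12 and 100 cells remained without them. In neither library did its cells near the limit stand apart, since the lowest shares inside were 2.03% and 2.04% and the highest outside 1.95% and 2.00%. A set of 20 and 26 cells picked by duct markers held 3.42% and 3.85% of UMIs as *Sst* and all 8 pan-endocrine markers, which summed to 16014 and 18044 CPM against 12218 to 15957 CPM in the hormone classes. Its 6 duct markers summed to 2077 and 1701 CPM, against 165 to 269 CPM in the hormone classes, so it carried both sets of markers and is called here only by its rule. Its leading genes in WT included the duct genes *Spp1* and *Krt19*, both part of the rule, and *Clu*, and in *Npc1*KO they were acinar genes led by *Clps*. Its *Npc1*KO cells also had 31074 CPM of acinar markers, against 288 CPM in WT. Neutrophils numbered 2 and 1. The remaining 70 and 47 cells were left unassigned by the rule, which did not use acinar markers or *Ghrl*, the ghrelin gene. Their acinar markers summed to 6687 and 21978 CPM. Ranked by level over that in all kept cells, the acinar gene *Ctrb1* led them in WT (4768 CPM) and *Ghrl* in *Npc1*KO (16460 CPM).

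The levels of the 9 genes in the granin-rich cells are given as CPM of all UMIs. *Neurog3* had 14 UMIs in 4 of the 18 WT cells (63.9 CPM, 34.9 to 107) and 122 UMIs in 48 of the 107 *Npc1*KO cells (70.5 CPM, 58.6 to 84.2). *Sox4* stood at 620 and 497 CPM, *Runx1t1* at 237 and 149.8 CPM, *Vwa5b2* at 237 and 179 CPM and *Tox3* at 192 and 167 CPM. *Hes6* had 86.7 and 112 CPM, *Gadd45a* 54.7 and 73.4 CPM and *Aldh1a3* 36.5 and 24.9 CPM. *Mdk* had 9.12 and 6.36 CPM, against 154 and 133 CPM in all cells with no leading hormone.

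Ranked by their level over that in all kept cells, *Chgb*, the neuropeptide gene *Penk*, *Fev*, a factor downstream of NEUROG3, and the neuropeptide gene *Cartpt* led this subset in WT. In *Npc1*KO they were *Chgb*, *Fev*, *Cldn5*, a claudin known from endothelium, and *Slc18a1*, which encodes a vesicular monoamine transporter. *Chgb* was part of the rule. *Fev* had 265 and 316 CPM and *Slc18a1* 146 and 197 CPM. The keratin *Krt7* stood at 347 and 356 CPM, while *Krt19*, another duct keratin, had 3 and 5 UMIs. Endothelial *Pecam1* had 0 and 3 UMIs. Of the 6 endothelial markers, which include it, 3 (WT) and 5 (*Npc1*KO) had a UMI, summing to 45.6 and 38.2 CPM. Their sum was 30.6 and 37.7 CPM in insulin-led, 49.7 and 57.3 CPM in glucagon-led and 10429 and 11422 CPM in endothelial cells. Of the 6 stellate or pericyte markers 0 had a UMI in WT and all 6 in *Npc1*KO, where they summed to 110 CPM. Of the 6 macrophage markers 2 had a UMI in each library, summing to 114 and 127 CPM, nearly all of it *C1qa* (109 and 126 CPM), and *C1qb*, *C1qc*, *Adgre1* and *Cd68* were at 0 in both. The 6 summed to 170 and 256 CPM in somatostatin-led, 64.2 and 72.8 CPM in PP-led and 27.7 and 43.9 CPM in insulin-led cells. In macrophages they summed to 15806 and 24224 CPM. The median mitochondrial share of the granin-rich cells was 6.51% and 6.57%, against 4.40% and 4.38% in all cells with no leading hormone. *Aldh1a3* was unevenly spread: the 48 *Npc1*KO granin-rich cells with a *Neurog3* UMI had 40.6 CPM of it and the 59 without had 11.7 CPM, and in WT the 4 and 14 cells had 81.8 and 23.5 CPM, on 4 UMIs each. Depth was not matched here either.

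**Figure D3:**
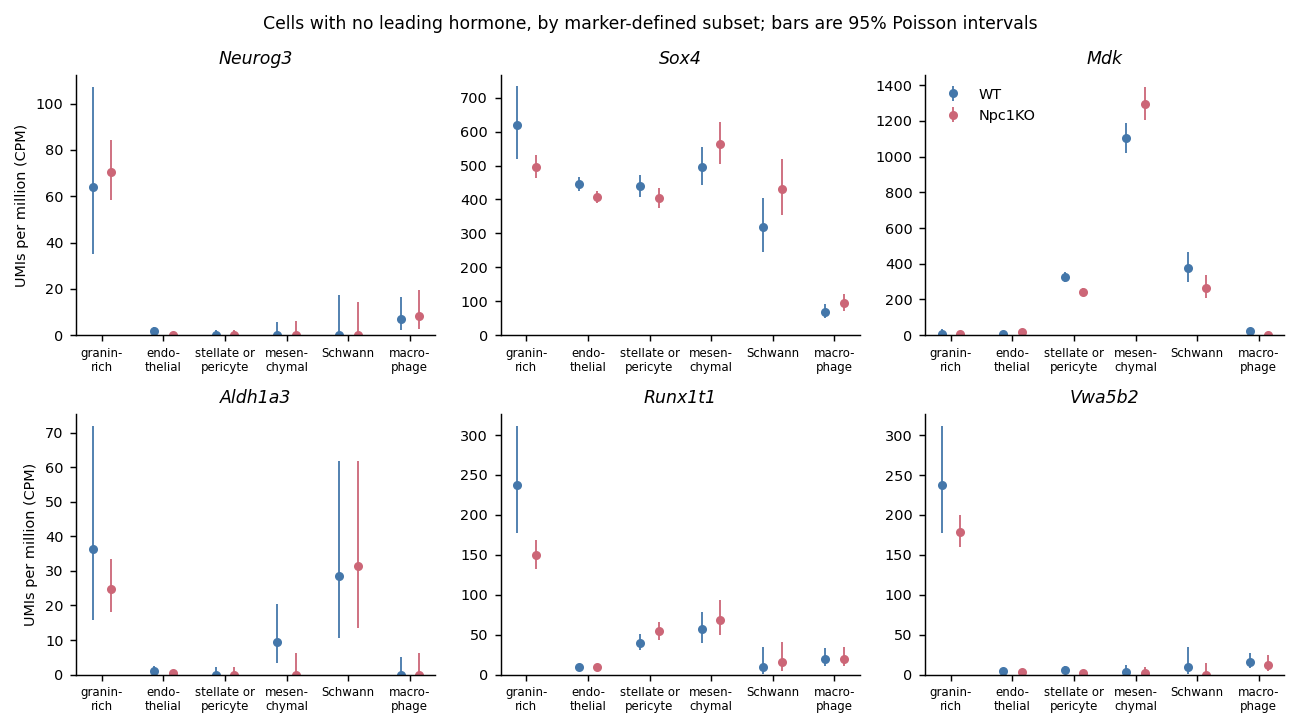
Level (CPM, linear axis from 0, a scale of its own in each panel) of 6 of the genes in the marker-defined subsets of cells with no leading hormone, for WT (blue) and *Npc1*KO (red), with 95% Poisson intervals. Among the subsets drawn, *Neurog3*, *Runx1t1* and *Vwa5b2* are highest in the granin-rich cells and *Mdk* in mesenchymal cells. *Aldh1a3* lies as high in Schwann cells as in granin-rich ones within the counting error. Cells picked by duct markers, not drawn, held 2.66% (WT) and 2.65% (*Npc1*KO) of all *Neurog3* UMIs, against 2.19% and 12.9% in granin-rich cells.

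Over all cells with no leading hormone, 4 of the 9 genes were past the fold upwards in *Npc1*KO and 0 downwards, where 5.67% and 6.79% of 11593 genes passed. *Neurog3* had 50 UMIs in WT and 154 in *Npc1*KO, a relative ratio of 1.36 (0.90 to 1.86). *Vwa5b2* went from 17.0 to 34.9 CPM, with 0.96 (0.70 to 1.23). *Tox3* went from 28.6 to 48.9 CPM, with 0.70 (0.49 to 0.91), and *Runx1t1* from 29.5 to 48.2 CPM, with 0.64 (0.43 to 0.85).

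Each of these 4 ratios was smaller or turned without the granin-rich cells. With those cells left out, an alternative chosen after the values were seen, *Neurog3* had 36 UMIs in WT and 32 in *Npc1*KO, a relative ratio of -0.19 (-0.92 to 0.54). The ratio of *Vwa5b2* became -0.48 (-0.90 to -0.07), of *Tox3* 0.10 (-0.16 to 0.36) and of *Runx1t1* 0.22 (-0.03 to 0.48), and 0 of the 9 passed the fold. Within the granin-rich cells, *Neurog3* gave 0.15 (-0.61 to 1.11), and the interval left out 0 for *Runx1t1* alone among these 4, at -0.63 (-1.05 to -0.16). *Neurog3* below 1% *Sst* in cells not led by insulin kept a ratio of 1.32 (0.81 to 1.87) without this granin-rich subset, on 44 and 111 UMIs. The levels were 1.34 and 3.48 CPM, under 5 CPM in both libraries. The subset held only cells with no leading hormone. Hormone-led cells that also reached 2% granins, insulin-led ones included, numbered 7 in WT and 65 in *Npc1*KO. Those not led by insulin were not taken out, and their part in the ratio was not tested.

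**Figure D4:**
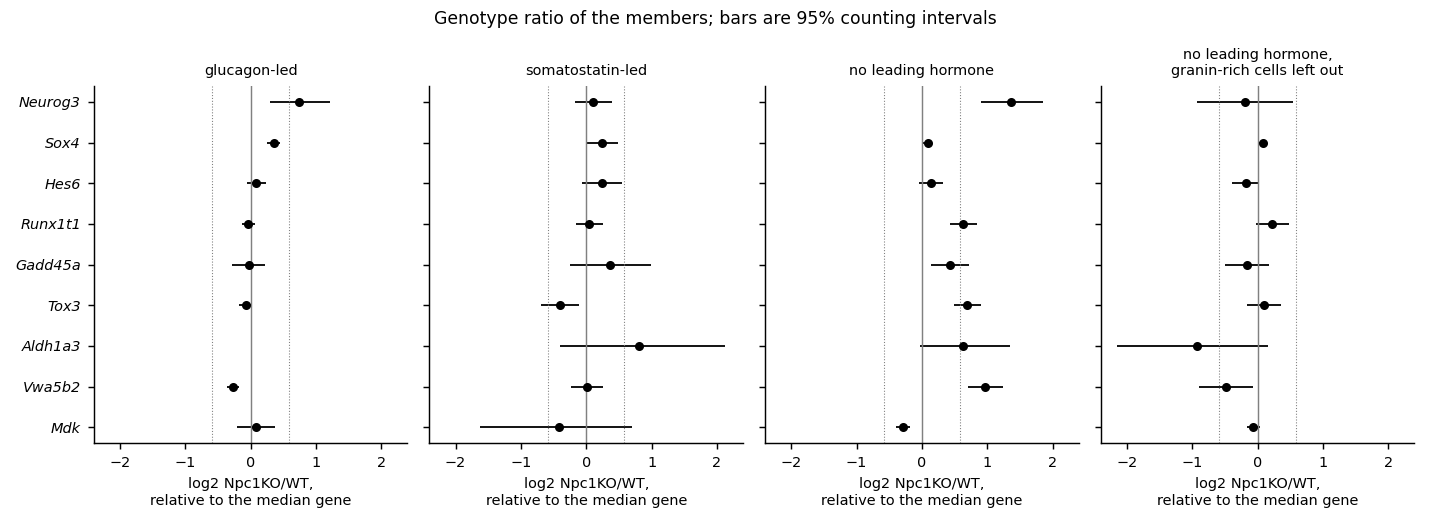
Ratio of *Npc1*KO to WT for each gene (x axis, log2, relative to the median gene) in glucagon-led cells, somatostatin-led cells, cells with no leading hormone and the last without granin-rich cells; bars are 95% counting intervals and dotted lines mark 1.5-fold. *Neurog3* lies at 1.36 with all cells that have no leading hormone and at -0.19 without the granin-rich cells; *Aldh1a3* in glucagon-led cells is not drawn, since WT had 0 UMIs.

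*Sox4* (chr13:28948919-28953713, minus strand, overlapped by *Gm26735*) encodes a high mobility group box factor needed in endocrine differentiation and active in many developing tissues. Its level was 363 CPM in WT and 406 CPM in *Npc1*KO cells with no leading hormone, against 59.4 to 118 CPM in the 4 hormone classes. Endothelial cells had 446 and 407 CPM, stellate cells or pericytes 439 and 403 CPM, and mesenchymal cells 497 and 564 CPM. The lymphocytes were low, with 30.5 CPM in WT B cells and 104 CPM in WT T cells.

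The rise of *Sox4* where no hormone led was 1.63 ± 0.11 over the hormone classes on the log2 scale (adjusted p = 4.53e-09 by edgeR). Its differences between glucagon-, somatostatin- or PP-led and insulin-led cells lay between -0.08 and 0.03 and were not called. *Sox4* was higher in *Npc1*KO by 0.35 (0.25 to 0.45) in glucagon-led cells and by 0.26 (0.19 to 0.33) in insulin-led cells, relative to the median gene, under the fold.

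*Mdk* (chr2:91929805-91932297, minus strand), the secreted heparin-binding growth factor midkine, was a gene of the stroma here. It stood at 1101 and 1295 CPM in mesenchymal cells, where 100% of cells had a UMI, at 324 and 240 CPM in stellate cells or pericytes and at 375 and 267 CPM in Schwann cells. Insulin-led cells had 1.97 and 1.92 CPM. Glucagon-led cells had 204 and 205 UMIs of it, higher than insulin-led cells by 2.26 ± 0.45 on the log2 scale (adjusted p = 0.00111 by edgeR), a call that DESeq2 did not make. Cells with no leading hormone were higher than the hormone classes by 4.31 ± 0.28 (adjusted p = 3.11e-09).

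In cycling cells *Mdk* had 187 UMIs in WT and 96 in *Npc1*KO, a relative ratio of -0.82 (-1.19 to -0.46). It was the only 1 of the 9 past the fold there, with 2.3% of 10628 genes past it upwards and 3.39% downwards. Most of its WT molecules, 162, came from the 72 cycling cells with no leading hormone, against 29 in 43 such *Npc1*KO cells. Cycling insulin-led cells went the other way, with 1 UMI in WT and 34 in *Npc1*KO. Mesenchymal cells numbered 5 among the WT cycling cells and 0 among the *Npc1*KO ones. The 6 acinar markers summed to 427 CPM in WT cycling cells and 39.1 CPM in *Npc1*KO ones. The part of either in the ratio was not tested.

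*Hes6* (chr1:91411483-91414038, minus strand) encodes a relative of HES1 that opposes it and is a target of NEUROG3. In the hormone classes it ranged from 38.6 CPM in WT glucagon-led cells to 74.8 CPM in *Npc1*KO somatostatin-led cells, and had 42.3 and 49.0 CPM where no hormone led. On the fitted scale, where the hormone load of insulin-led cells is taken into account, *Hes6* was lower than in insulin-led cells by 0.94 in glucagon-led cells (coefficient -0.94 ± 0.11, adjusted p = 7.71e-06 by edgeR). The coefficients were -0.41 in somatostatin-led cells (adjusted p = 0.0159, lost in 4 of the alternatives) and -0.58 in PP-led cells (adjusted p = 0.000967). Against the mean of the hormone classes it was -0.77 in cells with no leading hormone (adjusted p = 3.07e-06).

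*Runx1t1* (chr4:13743436-13893649, plus strand) encodes a transcriptional corepressor. It was highest in somatostatin-led cells, with 154 CPM (WT) and 161 CPM (*Npc1*KO), against 42.5 and 53.0 CPM in insulin-led cells. The differences from insulin-led cells were 1.02 ± 0.15 in somatostatin-led cells (adjusted p = 0.000104 by edgeR), 0.51 ± 0.14 in PP-led cells (adjusted p = 0.0139) and 0.43 ± 0.14 in glucagon-led cells (adjusted p = 0.0250). The PP and glucagon differences were lost without the library term, and the PP difference also with *Sst*-rich cells counted as somatostatin-led. *Runx1t1* was lower where no hormone led (coefficient -1.77 ± 0.13, adjusted p = 1.27e-08).

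*Tox3* (chr8:90247040-90348343, minus strand), which encodes a high mobility group box nuclear protein, was a gene of hormone cells in general. It stood at 60.3 and 70.1 CPM in insulin-led, 103 and 99.8 CPM in glucagon-led, 93.2 and 71.1 CPM in somatostatin-led and 97.8 and 88.4 CPM in PP-led cells. None of these differences was called, and the lowest adjusted p was 0.147 by edgeR. Where no hormone led, *Tox3* was lower (coefficient -1.66 ± 0.16, adjusted p = 2.87e-07).

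*Vwa5b2* (chr16:20589471-20605377, plus strand, overlapped on the other strand by *Gm49748* and *Alg3*) encodes a protein with a von Willebrand factor A domain. It had 109 and 92.1 CPM in glucagon-led cells and 114 and 116 CPM in somatostatin-led cells, against 43.5 and 55.0 CPM in insulin-led cells. Only the glucagon-led difference was called, at 0.63 ± 0.18 (adjusted p = 0.0144 by edgeR). *Vwa5b2* was lower in cells with no leading hormone (coefficient -2.23 ± 0.18, adjusted p = 3.72e-08). Endothelial cells held 4.08 and 2.65 CPM of it.

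*Gadd45a* (chr6:67035096-67037457, minus strand), a growth-arrest and stress gene, lay between 9.33 and 23.6 CPM in every class, lowest in WT insulin-led cells. The granin-rich cells had 54.7 CPM (WT) and 73.4 CPM (*Npc1*KO). *Gadd45a* was not called in any of the 5 class comparisons. *Aldh1a3* (chr7:66390890-66427517, minus strand), a retinaldehyde dehydrogenase that makes retinoic acid, was scarce in hormone cells, with 0.493 and 1.68 CPM in insulin-led cells and 3.68 and 6.58 CPM in somatostatin-led cells. It too was not called in any.

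*Aldh1a3* was at 0 UMIs in the 1048 WT glucagon-led cells and at 19 UMIs (1.11 CPM) in the 857 *Npc1*KO ones. In insulin-led cells it had 27 and 91 UMIs, a relative ratio of 1.63 (1.02 to 2.33), below the limit of 5 CPM. Over all cells not led by insulin it had 46 and 114 UMIs (1.20, 0.71 to 1.74), at 1.17 and 2.83 CPM. All cells of at least 1% *Sst* had 22 and 50 UMIs (1.02, 0.29 to 1.84), at 2.70 and 5.62 CPM. Cells not led by insulin, below 1% *Sst* and not granin-rich had 17 and 29 UMIs (0.75, -0.15 to 1.72). Outside the endocrine cells, Schwann cells had 28.4 CPM (6 UMIs, 10.4 to 61.9) and 31.4 CPM (8 UMIs, 13.6 to 61.9). Stellate cells or pericytes had 0 UMIs of *Aldh1a3* in both libraries.

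Over the 5 class comparisons, the 9 genes were called as follows, beside the share of all 14249 genes called in the same direction. Between glucagon- and insulin-led cells, 3 were higher (18.9% of all genes) and 1 lower (17.7%). Between somatostatin- and insulin-led cells, 2 were higher (13.7%) and 1 lower (13.6%). Between PP- and insulin-led cells, 2 were higher (16%) and 1 lower (13.8%).

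The contrast of cells with no leading hormone against the hormone classes called 2 of the 9 higher (38.3% of all genes) and 5 lower (32.2%), and the median of the 9 was -0.77, against 0.05 over all genes. The cycling contrast covered cells led by insulin, by glucagon or with no leading hormone. Cycling somatostatin-led cells (4 in WT and 3 in *Npc1*KO) and PP-led cells (27 and 23) were left out of it. In cycling cells, set against the other cells of the same classes, 0 were higher (16%) and 5 lower (24.6%). These 5 were *Neurog3* (coefficient -1.39 ± 0.41, adjusted p = 0.0142 by edgeR), *Hes6*, *Runx1t1*, *Tox3* and *Vwa5b2*. The call of *Neurog3* was lost under the stricter and looser cell filters and without ranked doublets, and that of *Hes6* under the stricter filter and with DESeq2.

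*Vwa5b2* changed most with cycling, by a coefficient of -2.36 ± 0.20 (adjusted p = 2.05e-07 by edgeR). It had 12.2 and 20.3 CPM in cycling insulin-led cells and 33.4 and 27.2 CPM in cycling glucagon-led cells. *Sox4* and *Mdk* were not called with cycling, at 0.07 and 0.20. The median over all genes was -0.17 in this contrast, and that of the 9 was -0.28.

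Genes around the 9 were read from lists by role. Where no hormone led, 38.3% of all genes were higher than in the hormone classes and 32.2% lower. Endothelial cells made up 37.0% (WT) and 43.0% (*Npc1*KO) of that class, and stellate cells or pericytes 20.7% and 25.5%. The list differences there therefore set largely vessel and stromal cells against hormone cells. Of 12 tested genes of the NEUROG3 cascade, 0 were higher and 10 lower where no hormone led (median -1.98), among them *Isl1*, *Pax6*, *Insm1* and *St18*. All 15 tested Notch pathway genes were higher there (median 4.07), with *Hey1* at 6.61, *Hey2* at 6.08, *Lfng* at 5.84 and *Heyl* at 5.80. Of 12 retinoid pathway genes 11 were higher and 1 lower (median 3.21), and of 10 midkine partners 8 and 1 (median 1.84). Of 15 further endocrine progenitor genes 9 were higher and 3 lower, and of 11 duct and multipotent progenitor genes 1 and 8. Of 11 close relatives of the members 6 were higher and 4 lower.

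In somatostatin-led cells the same lists gave 3 higher and 4 lower of 12 cascade genes, 3 and 1 of 15 Notch genes, and 3 and 0 of 11 duct and multipotent progenitor genes. Of all genes, 13.7% were higher and 13.6% lower in this contrast. *Sox9*, a factor of duct progenitors, was higher by 5.48 ± 0.36 on the log2 scale (adjusted p = 4.64e-08 by edgeR). Of 10 midkine partners 5 were higher and 2 lower, led by the receptor gene *Ptprz1* at 5.55 ± 0.19 (adjusted p = 1.83e-10). In PP-led cells 6 partners were higher and 2 lower, and *Sox9* was higher by 3.997 ± 0.36 (adjusted p = 9.61e-07 by edgeR). The shares of all genes there were 16% and 13.8%.

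In glucagon-led cells 4 cascade genes were higher and 2 lower of 12, beside 18.9% and 17.7% of all genes. In cycling cells 0 cascade genes were higher and 5 lower of 12, and of 12 retinoid genes 0 and 5, beside 16% and 24.6% of all genes. *Myt1* had the largest of these cascade differences, with a coefficient of -1.01 ± 0.22 (adjusted p = 0.00246 by edgeR).

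By genotype, the lists passed the fold mainly where no hormone led. There 8 of 11 cascade genes were higher in *Npc1*KO and 1 lower, beside 5.67% and 6.79% of 11593 genes. *Fev* went from 8.54 to 53.3 CPM (relative ratio 2.56, 2.24 to 2.91), and the granin-rich cells held 58 of its 85 WT UMIs and 547 of its 602 *Npc1*KO UMIs. *Rfx6* went from 5.33 to 24.4 CPM and *Myt1* from 5.03 to 13.1 CPM. Of 9 duct and multipotent progenitor genes 4 were higher and 1 lower, with *Cpa1* at 46.7 and 210 CPM and *Krt7* at 28.7 and 67.3 CPM. *Krt7* was lower where no hormone led than in the hormone classes (coefficient -2.38 ± 0.29, adjusted p = 2.91e-06 by edgeR). Its levels in the granin-rich cells, given above, were higher than both of these. In all cells with no leading hormone the summed acinar markers had 576 CPM (WT) and 2527 CPM (*Npc1*KO), and the 8 pan-endocrine markers 3088 and 13591 CPM. Their part in these ratios was not tested.

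In the other classes 0 to 2 genes of a list passed in each direction, except for 3 duct and multipotent progenitor genes that were lower in *Npc1*KO cycling cells (*Cpa1*, *Krt19* and *Sox9*). Of all genes, 0.707% to 3.39% passed in a given direction in these classes. *Fev* was higher in insulin-led cells (82 and 298 UMIs, relative ratio 1.75, 1.40 to 2.13). *Dlk1* was higher in glucagon-led cells (1.51 and 5.18 CPM) and in PP-led cells (13.6 and 23.8 CPM).

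As a description over the 16 sums, which share libraries and depth, the genes most like *Neurog3* by Pearson's r of log2(CPM + 10) among 9169 genes were *CT025619.1* (0.98), *F5* (0.97) and *Ghsr* (0.97). For *Tox3* they were the granule genes *Cpe* (0.98) and *Scg5* (0.98) and the potassium channel gene *Kcnk16* (0.98), and for *Mdk* the collagen gene *Col1a2* (0.98), *Angptl4* (0.98) and *Adamts5* (0.97). *Vwa5b2* was followed by *1500011B03Rik* (0.98), *Runx1t1* by *Cyp4v3* (0.98), *Sox4* by *Mosmo* (0.97), *Hes6* by *Il17re* (0.93), *Gadd45a* by *Usp22* (0.88) and *Aldh1a3* by *Smyd3* (0.85). Among the 9, *Sox4* and *Mdk* were most alike (r = 0.94), then *Runx1t1* and *Vwa5b2* (0.89).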

How the data were processed

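Islet cells of 1 WT and 1 *Npc1*KO pool were measured. The deposited values are whole-number UMI counts for each gene in each barcode, which the authors made on mm10 with Cell Ranger 3.1.0 (with Seurat 4.0.3 also named), per the submitters' processing notes, and neither normalized nor filtered beyond Cell Ranger's choice of barcodes. Whether counting used strand is not given in the sources used here, so reads of overlapping genes on the other strand may be included.

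A barcode was used if over 1000 genes were detected in it, its UMIs were under 50000, less than 10% of them were mitochondrial and at most 0.1% came from haemoglobin genes. No doublets were removed. Of the barcodes, 54.0% and 55.8% were kept. Levels are UMIs summed over a class per 1000000 UMIs. A count of 0 allows up to 3 counts. Ratios added 0.5 counts. Classes were compared with edgeR 4.0.16 (R 4.3.3; filterByExpr, TMM, quasi-likelihood, 7 residual degrees of freedom, Benjamini-Hochberg threshold 0.05), and the procedures were tested on simulated data. The other steps ran in Python 3.11.15 with scipy 1.17.1, numpy 2.4.6 and pandas 2.3.3, and doublet scores came from Scrublet (scanpy 1.11.5). A subset needed at least 3 UMIs of its markers and at least 2 times the UMIs of the next list.

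The genes, lists and classes were chosen with earlier results of these data known. Named genes were the 9, *Npc1*, class markers, up to 4 called genes per list with the largest difference, and the 3 genes most like each of the 9 among genes of at least 20 CPM in a sum. *Hhex*, *Sst* and the genes leading the granin-rich, duct-marker and unassigned cells were named after their values were seen, as were the levels given for *Krt7* and *C1qa*. The values of 1 gene of the lists are not reported here. Positions are from GENCODE vM21. Alternatives were cell filters of over 2000 genes with under 5% mitochondrial UMIs (stricter) and over 500 genes with under 20% (looser), removal of ranked doublets, hormone limits of 5% and 20%, 5 UMIs for cycling, totals without hormone genes, means over cells, a TMM factor, no low-value filter, the top cell left out, DESeq2 1.42.0, no library term, thinning to 2500 UMIs and granin limits of 1% and 4%. The 1% *Sst* split and the fits without granin-rich cells or without B cells, T cells and neutrophils were added after the data were seen.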

Additional observations from a re-analysis of the deposited data

Results flagged for a closer look

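*Neurog3* was also counted in barcodes outside the cell filter, which no comparison used. The 3941 such WT barcodes held 71 UMIs of it, or 3.51 CPM (2.74 to 4.43), above the 0.148 CPM that a count of 0 allows. The 3377 such *Npc1*KO barcodes held 144 UMIs, or 4.40 CPM (3.71 to 5.18), above 0.0917 CPM. Many of these barcodes exceeded the mitochondrial limit, 2628 in WT and 2395 in *Npc1*KO.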

How the results depend on the processing

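No paired analysis was possible because each genotype has 1 library. Of 22 called class differences, 14 were called under every alternative, and 224 of 242 alternative values stayed called in the same direction. The log2 difference of *Neurog3* between somatostatin- and insulin-led cells ran from 3.39 to 4.48. Where no hormone led, its coefficient of -1.11 turned to 1.15 with the hormone limit at 20%. Genes called in the somatostatin contrast were 6 with no low-count filter (3 as reported), in the PP contrast 1 with *Sst*-rich cells moved to the somatostatin class (3 as reported) and in the cycling contrast 3 under the stricter filter (5 as reported).

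Genes past the fold by genotype in insulin-led cells (0 as reported) were 1 with totals without hormones and 2 with no low-value filter. In glucagon-led cells (1 as reported) they were 0 without ranked doublets, with the 20% limit or with *Sst*-rich cells moved, and 2 with no low-value filter. In somatostatin-led cells (0 as reported) there was 1 with the 20% limit (*Tox3*, lower) and 1 with *Sst*-rich cells moved (*Aldh1a3*, higher). In PP-led cells (0 as reported) there was 1 under each of these (*Neurog3*, higher) and 1 with no low-value filter (*Aldh1a3*, higher). Where no hormone led (4 as reported) there were 0 under the stricter filter, 1 with the 20% limit, 0 without granin-rich cells and 2 without B cells, T cells and neutrophils. The ratio of *Neurog3* turned to -0.52 and of *Vwa5b2* to -0.17 under the stricter filter, and to -0.19 and -0.48 without granin-rich cells. The stricter filter left 1 WT and 10 *Npc1*KO granin-rich cells.

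*Neurog3* in somatostatin-led cells was 119 CPM in WT and 129.9 in *Npc1*KO with totals without hormones, 59.6 and 46.6 with the 20% limit, and 63.5 and 65.5 with *Sst*-rich cells moved. Its share of UMIs outside insulin-led cells (77.7% and 75.5%) was 87.5% and 78.6% without ranked doublets and 68.2% in *Npc1*KO under the looser filter. The share in *Npc1*KO cells of at least 1% *Sst* was 71.3% under the stricter filter. In granin-rich cells *Neurog3* was 0 CPM in WT and 45.0 in *Npc1*KO under the stricter filter, and 55.9 in *Npc1*KO with the 20% limit. These cells were 0.216% and 1.92% of kept cells with granins at 4%, 0.0308% and 0.351% under the stricter filter, and 3.09% in *Npc1*KO with the 20% limit. The thinned share in somatostatin-led cells was 13.8% and 18.4% at 2500 UMIs, and 23.3% in WT with the 20% limit. The cause of these changes was not tested. This includes the changes under the stricter filter, which also takes out cells that are not granin-rich. Low genes such as *Aldh1a3* rest on few molecules, and 1 pool per genotype leaves the spread between mice unmeasured.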
